A study of Glycine max with 4 samples.

Results

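A group of 160 gene models whose transcripts stood highest in late-maturation soybean cotyledons is described here, out of 66210 gene models counted. Each member had 1 or more scaled CPM (counts per 1000000 of a library size scaled with TMM, the trimmed mean of M-values) in the AA1 library. Its level there was at least 4-fold above that in each of the other 3 libraries, in which counts under 3 were set to 3. The members were therefore chosen by their levels in the 4 libraries, and those levels are given as a description, without a test. Of the 24973 gene models with 1 or more scaled CPM in AA1, 0.641% met the rule.

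The 4 libraries came from polyadenylated RNA of greenhouse-grown soybean of the cultivar Williams 82, with no treatment or transgene named in the labels. The mid-maturation stage (B1) was represented by green cotyledons weighing 150 to 250 mg per pair, dissected away from seed coat and axis. The late-maturation stage (AA1) was represented by yellow cotyledons of 200 to 350 mg per pair, dissected in the same way. The other 2 libraries came from whole dry seeds of 100 to 250 mg, which include seed coat and axis, and from seedling cotyledons 6 days after imbibition. Each stage had 1 library, so stage and library preparation cannot be told apart, no p-value is given, and every interval covers counting error only. Only the dry seed library held whole seeds, so stage and tissue cannot be told apart where it is compared with the cotyledon libraries. Totals ran from 16120894 counts in B1 to 38011608 in AA1. Less RNA per cell and fewer cells with a transcript cannot be told apart in such whole-tissue libraries. The labelled tissues were not checked against marker genes, because 0 of the identifiers matched the gene name table used here. For the same reason members are given by identifier only, with no product name and no sequence.

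Late maturation is the phase in which a soybean embryo stops filling its reserves, loses its green colour and prepares for drying. The hormone abscisic acid and desiccation-protective proteins such as late embryogenesis abundant proteins are known for their part in it. A dry seed keeps messenger RNA made before drying, and much of this stored RNA is replaced after imbibition by transcripts for reserve mobilisation and photosynthesis.

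The members ranged widely in level. In AA1 they spanned 1.30 to 934 scaled CPM, with a median of 8.31, while the median over the 24973 gene models was 8.34. Their medians elsewhere were 0.37 scaled CPM in B1, 1.03 in the dry seed and 0.47 in the seedling. As a share of the gene model's own AA1 level, the median member kept 4.58% in B1, 12.2% in dry seed and 7.59% in seedling cotyledons. Over all 24973 gene models these medians were 70.7%, 92.3% and 85.8%. The low values of the members follow from the rule, which admits nothing above 25%, but the order among the 3 libraries does not. Because counts are not corrected for gene length, the levels of different gene models are not compared as molecule numbers.

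The members held 392126 counts in AA1, or 1.03% of that library (exact binomial interval 1.028% to 1.035%). Their shares elsewhere were 0.0592% in B1 (0.0580% to 0.0604%), 0.159% in the dry seed (0.1571% to 0.1604%) and 0.0549% in the seedling (0.0541% to 0.0558%). The reads were concentrated in few members. The 10 members with most counts took 59.3% of the group's AA1 counts, and 8 were enough to reach 50%. None belonged to the most abundant transcripts of the library, as the first of them, Glyma15g21980, ranked 105 by counts in AA1, and 20 members were among the first 1000.

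**Figure D1:**
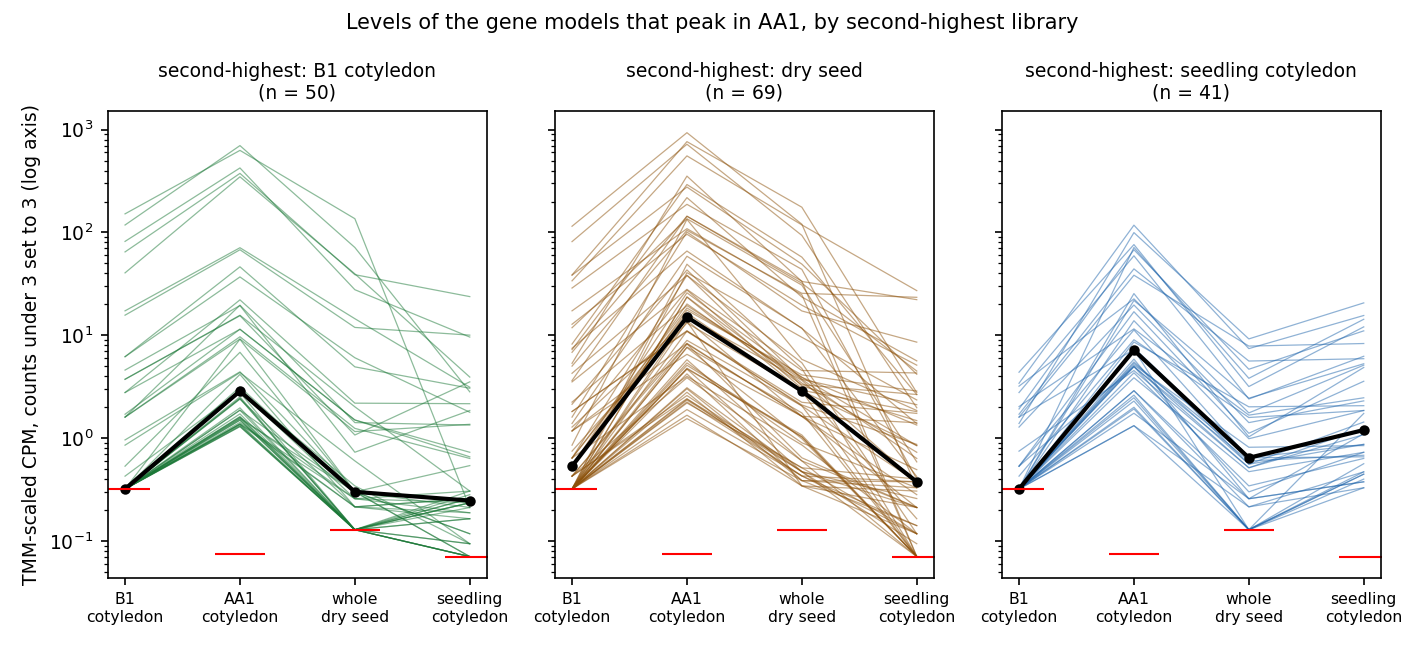
Scaled CPM (log axis) of the 160 members in the 4 libraries, 1 thin line per member, split by the library with the second-highest level. Black lines are medians and red dashes mark the level of 3 counts, the floor. All lines peak in AA1, and many of the 50 lines in the B1 panel start at the floor of B1.

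The 10 members with the highest counts differed in how much B1, dry seed and seedling held. Glyma15g21980 reached 934 scaled CPM in AA1, against 115 in B1, 120 in the dry seed and 0.33 in the seedling. It was 8.12-fold higher in AA1 than in B1 (interval 7.64 to 8.64) and 7.76-fold higher than in dry seed (7.46 to 8.06). B1 and dry seed were nearly level, at a B1 to dry seed ratio of 0.96, while only 14 counts were found in the seedling library, a 2838-fold difference (1691 to 5191). Glyma17g06160 had the same shape, with 721 scaled CPM in AA1, against 81.5, 93.7 and 1.98 in B1, the dry seed and the seedling. Glyma18g01720 did so too, with 348 in AA1 against 40.5, 39.6 and 3.93. In these 3 gene models B1 and dry seed lay close together under TMM and the seedling far below. With total counts as library sizes B1 was lower, and the B1 to dry seed ratio was 0.51 for Glyma15g21980, 0.47 for Glyma17g06160 and 0.55 for Glyma18g01720.

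Others among the first 10 were uneven between B1 and dry seed. Glyma12g35450 reached 765 scaled CPM in AA1, against 38.7 in B1, 176 in the dry seed and 2.78 in the seedling. It was 19.8-fold above B1 (17.8 to 22.0) but 4.34-fold above dry seed (4.20 to 4.49), so the dry seed lay far closer to AA1 than B1 did. Glyma14g12630 was similar, with 556 scaled CPM in AA1 against 33.9, 119 and 27.2 in B1, the dry seed and the seedling. The opposite shape was found in Glyma05g01850, with 424 scaled CPM in AA1, against 81.9 in B1, 27.8 in the dry seed and 9.62 in the seedling. It was 5.18-fold above B1 (4.82 to 5.57) and 15.3-fold above dry seed (14.1 to 16.5). Glyma20g32550 also had more in B1 than in dry seed under TMM, with 699.9 scaled CPM in AA1 against 118, 71.5 and 2.82 in B1, the dry seed and the seedling. Glyma04g43230 had 376 in AA1 against 64.7, 38.9 and 23.8. For these last 2 the direction between B1 and dry seed turned with total counts, with B1 to dry seed ratios of 1.65 and 1.66 under TMM and 0.89 and 0.89 under total counts. That of Glyma05g01850 was 2.95 and 1.58.

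Glyma06g03110 was the member of this set nearest to the threshold, with 629 scaled CPM in AA1, against 152 in B1, 136 in the dry seed and 0.21 in the seedling. It was 4.14-fold above B1 (3.93 to 4.37), so the interval reached below 4-fold. Its ratio of AA1 to the highest other library was 3.68 with DESeq2 size factors and 3.69 with the upper quartile. That ratio was 3.59 without the 100 most abundant gene models and 4.49 with total counts. Its 2971-fold distance to the seedling (1565 to 6498, from 9 counts) was the largest of any member. Glyma12g06300 differed from the other 9 in having very little in B1, with 353 scaled CPM in AA1, against 5.34 in B1, 33.4 in the dry seed and 22.2 in the seedling. It was 66.2-fold above B1 (50.2 to 89.2), 10.6-fold above dry seed (9.85 to 11.4) and 15.9-fold above the seedling (14.9 to 17.0).

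**Figure D2:**
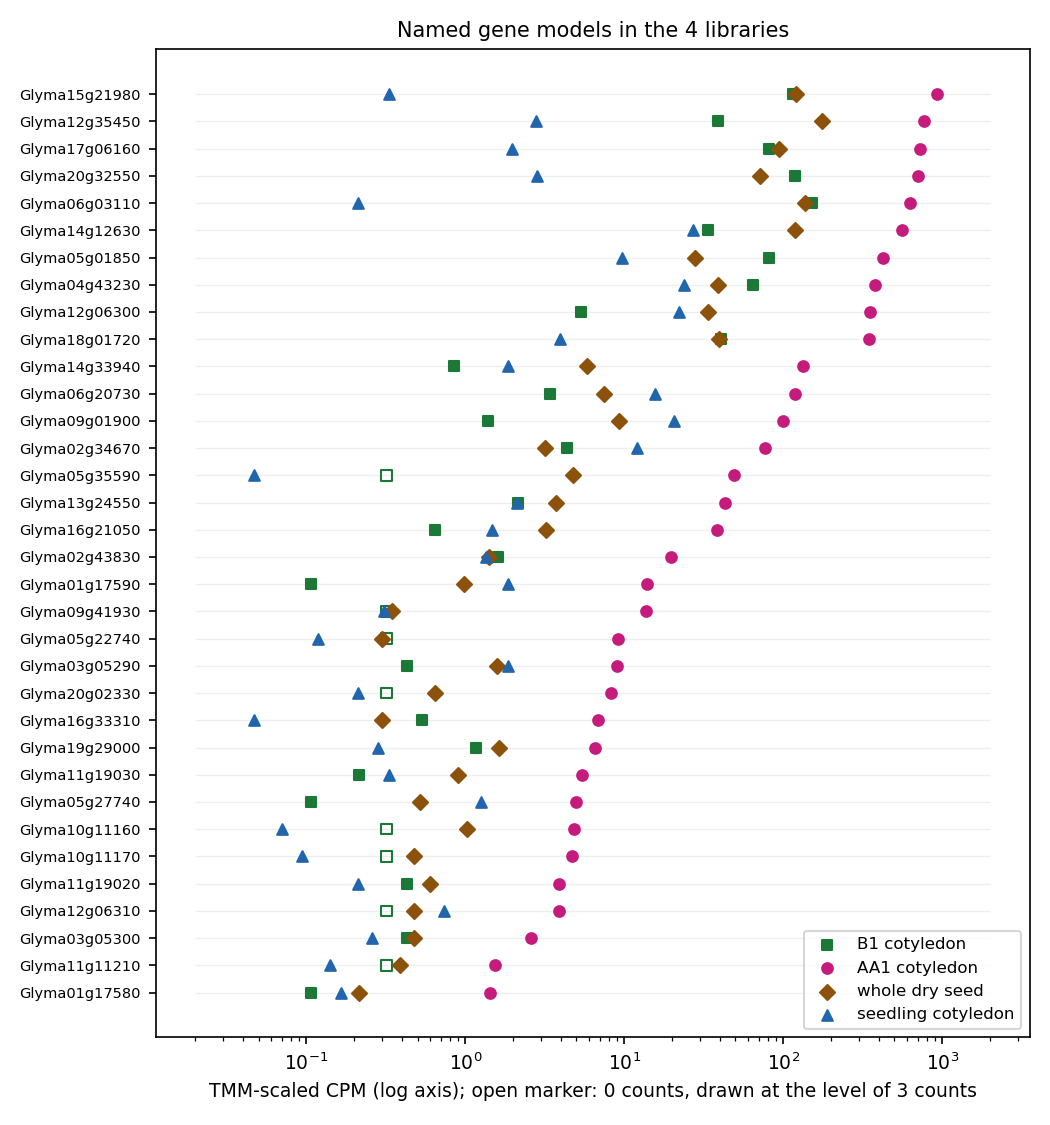
Scaled CPM (log axis) of the 34 named members in the 4 libraries, ordered by their AA1 level. Open markers are 0 counts drawn at the level of 3 counts, so a filled marker of 1 or 2 counts can lie to their left. The AA1 marker lies farthest right in every row, and the seedling marker lies farthest left in most of the upper rows.

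Most of the sharpest peaks had lower counts, though Glyma12g06300 was 1 of them. Among members with 5 or more scaled CPM in AA1, the 10 with the largest ratio of AA1 to the highest other library ranged from 10.3 to 39.8. Glyma09g41930 led, with 547 counts in AA1, against 0 in B1, 8 in the dry seed and 13 in the seedling. These were 13.7 scaled CPM in AA1, 0.34 in the dry seed and 0.31 in the seedling. It was 39.8-fold above dry seed (20.0 to 92.6), 44.7-fold above the seedling (25.9 to 84.4) and at least 42.6-fold higher than B1, against 3 counts in that library. Glyma05g22740 was second, with 367 counts in AA1 against 0, 7 and 5 in B1, the dry seed and the seedling. Its 9.16 scaled CPM in AA1 were at least 28.6-fold higher than B1 and 30.5-fold above dry seed (14.6 to 76.4). These 2 gene models were close to undetected outside AA1.

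Glyma14g33940 combined a sharp peak with a high level, with 134 scaled CPM in AA1, against 0.85 in B1, 5.84 in the dry seed and 1.86 in the seedling. It was 157-fold above B1 (79.5 to 364, from 8 counts), 23.0-fold above dry seed (19.4 to 27.4) and 72.1-fold above the seedling (57.8 to 91.3). Of the sum of its 4 scaled levels, 94.0% lay in AA1. For the median member this part was 78.1%, with a range of 63.9% to 97.2%.

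The other sharp peaks had ratios between 10.3 and 12.8. Glyma05g35590 had 1970 counts in AA1, against 0 in B1, 111 in the dry seed and 2 in the seedling. It was 10.3-fold above dry seed (8.52 to 12.6) and at least 153-fold higher than B1. Its transcript was thus found in AA1 and, at a far lower level, in the dry seed, with next to nothing in B1 or the seedling. Glyma16g33310 had 274 counts in AA1, against 5 in B1, 7 in the dry seed and 2 in the seedling. It was 12.8-fold above B1 (5.42 to 39.8) and 22.8-fold above dry seed (10.9 to 57.1), and these intervals overlap. Glyma20g02330 had 331 counts in AA1 against 0, 15 and 9, and was 12.8-fold above dry seed (7.67 to 23.2). Counts this low leave the size of the fold open by several times.

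A further 3 sharp peaks had reads in all 4 libraries. Glyma02g43830 had 19.6 scaled CPM in AA1, against 1.60 in B1, 1.42 in the dry seed and 1.34 in the seedling. It was 12.3-fold above B1 (7.39 to 22.0) and nearly level outside AA1 under TMM. With total counts its levels were 0.93 in B1, 1.53 in the dry seed and 2.02 in the seedling. Glyma13g24550 had 43.2 scaled CPM in AA1 against 2.14, 3.73 and 2.12, 11.6-fold above dry seed (9.33 to 14.5). Glyma16g21050 had 38.4 in AA1 against 0.64, 3.22 and 1.48, 11.9-fold above dry seed (9.45 to 15.2). The first of them was the most even across the 3 lower libraries.

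Most members were not that sharp. The median ratio of AA1 to the highest other library was 5.23, with quartiles at 4.46 and 7.47, and 70 of the 160 lay under 5-fold. A ratio of 8 or more was reached by 28 members (17.5%) and of 16 or more by 3 (1.88%). For gene models that met the same rule in another library, 8-fold was reached by 54.5% of 1623 in B1, 22.8% of 800 in dry seed and 54.5% of 4181 in seedling cotyledons. Peaks in AA1 were thus both the fewest and the least often 8-fold among the 4 libraries. A peak in AA1, dry seed or seedling has to clear the floor of B1, the highest of the 4 at 0.32 scaled CPM, which a peak in B1 does not.

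**Figure D3:**
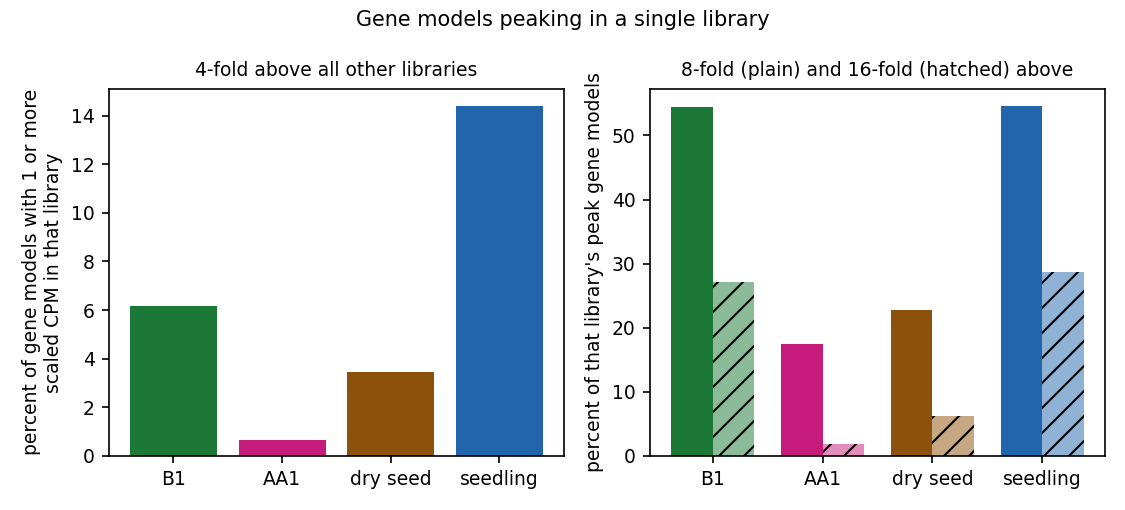
Left, percent of gene models with 1 or more scaled CPM in a library that stood at least 4-fold above all other libraries there, from 0.641% in AA1 to 14.4% in the seedling. Right, percent of those peak gene models at least 8-fold (plain bars) and 16-fold (hatched bars) above all others.

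The threshold cut through a continuous distribution. There were 65 gene models with ratios from 3.5 to 4 and 42 from 4 to 4.5. Just inside lay Glyma05g27740 at 4.005-fold, with 200 counts in AA1 against 1, 12 and 53 in B1, the dry seed and the seedling. Beside it lay Glyma11g11210 at 4.01-fold, with 62 against 0, 9 and 6, and Glyma19g29000 at 4.01-fold, with 262 against 11, 38 and 12. Just outside lay Glyma06g17410 at 3.99-fold, with 254 counts in AA1 against 9, 37 and 39. It was followed by Glyma01g35630 at 3.99-fold, with 1382 against 81, 179 and 192, and Glyma07g02400 at 3.98-fold, with 178 against 10, 26 and 46. The intervals of the 3 inside all reached below 4-fold, for instance 1.98 to 9.17 for Glyma11g11210 against dry seed. For 71 members the interval bound nearest to 1 also lay beyond 4-fold against each other library.

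The requirements were met by partly separate sets of gene models. Of the 24973, AA1 stood at least 4-fold above B1 in 3836 (15.4%), above dry seed in 2575 (10.3%) and above the seedling in 3329 (13.3%). The B1 and seedling requirements together left 1170, and dry seed then removed 1010 of them. In 536 of those 1010 (53.1%) the dry-seed level was equal to or above the AA1 level, and in 185 it was 2-fold to 4-fold below. B1 alone kept out 317 gene models, and the seedling alone kept out 452. The 160 are hence 13.7% of the gene models that stood 4-fold above B1 and the seedling, and most of the others were found in the dry seed at or above the AA1 level. As that library held whole seeds, such levels may come from seed coat or axis, which was not tested.

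**Figure D4:**
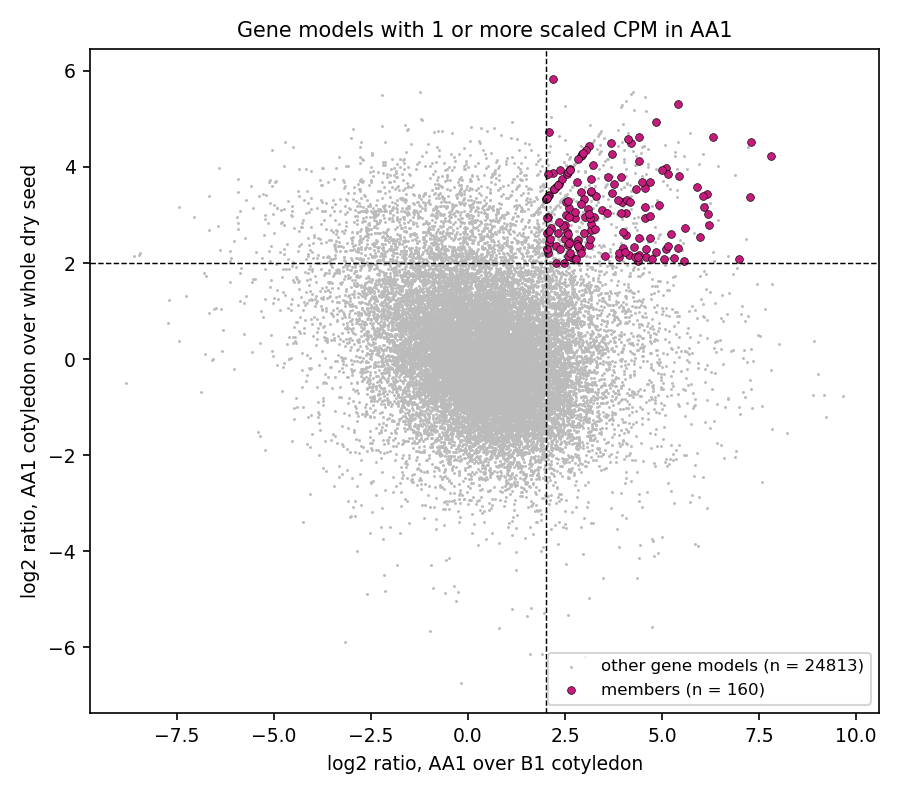
Log2 ratio of AA1 over whole dry seed against log2 ratio of AA1 over B1, with counts under 3 in B1 or dry seed set to 3, for the 24973 gene models with 1 or more scaled CPM in AA1. Dashed lines mark 4-fold. The 160 members lie in the upper right, where other gene models also lie that failed the seedling requirement.

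The second-highest library was not set by the rule. With counts under 3 set to 3 it was dry seed for 69 members (43.1%), B1 for 50 (31.2%) and the seedling for 41 (25.6%). Among the 4497 other gene models with their highest level in AA1 these shares were 51.3%, 23.9% and 24.8%. In 28 of the 50 members assigned to B1, however, B1 held 3 counts or fewer, and in 20 it was second only through the floor. Without the floor, 78 members had dry seed, 52 the seedling and 30 B1 in second place. The B1 library is the shallowest after scaling, with 3 counts worth 0.32 scaled CPM, against 0.13 in dry seed and 0.07 in the seedling. With total counts in place of TMM, B1 was second in 8 members and the seedling in 75.

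The 41 members with the seedling in second place had medians of 1.20 scaled CPM in the seedling, 0.64 in dry seed and 0.21 in B1, and in 11 of them dry seed lay within 1.5-fold of the seedling. Glyma06g20730 had 118 scaled CPM in AA1, against 3.42 in B1, 7.43 in the dry seed and 15.6 in the seedling, 7.56-fold above the seedling (6.97 to 8.21). Glyma09g01900 had 99.8 in AA1 against 1.39, 9.23 and 20.7, 4.83-fold above the seedling (4.49 to 5.20). With total counts its ratio was 3.37, under 4-fold. Glyma02g34670 had 76.3 in AA1 against 4.38, 3.18 and 12.1, 6.31-fold above the seedling (5.75 to 6.94). These 3 are the ones with the highest AA1 level in that set.

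The full order of the 4 libraries varied among members. After AA1, dry seed, seedling and B1 followed in this order in 42 members (26.2%), and seedling, dry seed and B1 in 40 (25.0%). Dry seed, B1 and seedling followed in 34 (21.2%) and B1, dry seed and seedling in 20 (12.5%). The 2 orders that end with dry seed were found in 10 members each, and 4 members had ties. Among the 4497 other gene models highest in AA1, the shares were 24.4%, 15.8%, 27.0% and 15.3%. For the orders that end with dry seed they were 8.29% (B1 before seedling) and 9.01% (seedling before B1). Under TMM, B1 was thus the single lowest library in 82 members, the seedling in 54 and dry seed in 20. The orders were not computed with other scalings. With total counts, the seedling was at least 4-fold higher than B1 in 41 members, against 19 with TMM. The reverse was found in 11, against 27.

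B1 was also the library in which members were most often missing. There were 0 counts for 43 members (26.9%) in B1, the shallowest library, for 3 (1.88%) in the dry seed and for 3 (1.88%) in the seedling. No member was at 0 in all 3. Over all 24973 gene models 1.74% had 0 counts in B1, 0.208% in dry seed and 0.224% in the seedling. B1 thus held the most zeros there too, and low values of the members outside AA1 follow from the rule. A 0 in B1 allows up to 0.32 scaled CPM there, taken as 3 counts. The AA1 level was 10-fold or more above B1 in 71 members and above dry seed in 63, and 92 members reached that distance to the seedling. At 100-fold the numbers were 4, 0 and 18. Over all 24973 gene models, members included, 10-fold was reached in 1056, 666 and 1230, and 100-fold in 51, 0 and 262. The largest distance to dry seed of any of them was 56.6-fold, so the 0 is not particular to the members.

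Levels outside AA1 were compared with each other, a contrast that the rule limits from above but does not set. Dry seed was at least 4-fold higher than B1 in 28 members (17.5%), against 21.0% of all 24973 gene models and 12.1% of the other gene models highest in AA1. The opposite, B1 at least 4-fold higher than dry seed, was found in 2 members (1.25%), against 14.9% and 3.18%. Dry seed exceeded the seedling by this distance in 45 members (28.1%), against 17.7% and 16.6%. The seedling exceeded dry seed in 4 (2.50%), against 18.4% and 4.91%. B1 exceeded the seedling in 27 (16.9%), against 10.1% and 10.1%, and the seedling exceeded B1 in 19 (11.9%), against 15.6% and 7.74%. Members at low levels cannot reach 4-fold over the floor, so the floor can hide differences, and depth differs between the libraries. Scaling with total counts changed several of these counts by over 1.5 times, in both directions. Dry seed over B1 rose to 46, the seedling over dry seed to 13 and the seedling over B1 to 41. B1 over the seedling fell to 11 and B1 over dry seed to 1. A pseudocount of 1 scaled CPM lowered every count.

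High and low members differed in what they kept elsewhere. The 22 members with 100 or more scaled CPM in AA1 held 79.4% of the group's AA1 counts, and their median share of the AA1 level was 7.40% in B1, 17.5% in dry seed and 1.26% in the seedling. In 16 of them dry seed was second, in 5 B1 and in 1 the seedling. The 51 members from 10 to 100 scaled CPM kept 4.73%, 12.9% and 6.82%, and the 87 under 10 kept 3.69%, 10.4% and 11.0%. By these medians the 22 members with most reads kept least in the seedling, while the 51 and the 87 with fewer reads kept least in B1. Other gene models were not split by level, so whether this is particular to the members is not known. Among the 87, 38 had 0 counts in B1, against none of the 22, so the lowest class is also the one where depth limits the values most.

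The 3 lower libraries could be level or far apart. The ratio of the highest to the lowest of them, with counts under 3 set to 3, was under 4-fold in 81 members (50.6%). It was 10-fold or more in 33 (20.6%). Among the 4497 other gene models highest in AA1 these shares were 66.8% and 12.4%. For the 73 members with 10 or more scaled CPM in AA1 it was under 4-fold in 21 (28.8%) and 10-fold or more in 26 (35.6%). Of the 2486 other gene models highest in AA1 at that level, 65.2% were under 4-fold and 14.8% were 10-fold or more.

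Position was a property that the rule did not use. All 160 identifiers carry a chromosome number, as soybean gene model names do. Every one of the 20 chromosomes held members, from 5 on chromosomes 8 and 12 to 11 on chromosomes 3 and 6. As a share of the chromosome's gene models with 1 or more scaled CPM in AA1, members made up 0.282% on chromosome 8 and 0.967% on chromosome 3. With 5 and 11 members behind these shares, the group was spread over all chromosomes.

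A few members lay beside each other. Within 5 places in identifier order, 12 members formed 6 pairs, and in all 6 the partners were direct neighbours. The same count for other gene models is not given here, so whether 6 pairs are many or few is not known. On chromosome 12, Glyma12g06300, described above, lay beside Glyma12g06310, which had 155 counts in AA1, against 0 in B1, 11 in the dry seed and 31 in the seedling. The 2 differed in read level, at 353 and 3.87 scaled CPM in AA1, and in the second-highest library, which was dry seed for Glyma12g06300 and the seedling for Glyma12g06310. The ratio of Glyma12g06310 was 5.31, and 3.71 with total counts. On chromosome 10, Glyma10g11160 had 192 counts in AA1 against 0, 24 and 3 in B1, the dry seed and the seedling, and its neighbour Glyma10g11170 had 188 against 0, 11 and 4. They matched closely in all but the dry seed.

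Of the other pairs, Glyma11g19020 and Glyma11g19030 on chromosome 11 had 155 and 216 counts in AA1, and both had dry seed in second place. Glyma01g17580 and Glyma01g17590 on chromosome 1 had 57 and 556 AA1 counts, and Glyma03g05290 and Glyma03g05300 on chromosome 3 had 363 and 104. The last pair, Glyma07g11700 and Glyma07g11710 on chromosome 7, had 62 and 99. Neighbouring soybean gene models can be near-identical copies or parts of 1 gene, and how reads that fit several places were counted is not known from the sources at hand. The values within a pair may therefore not be independent.

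Gene models directly beside a member were looked at next. Of the 308 such neighbours that were not members, 140 had 1 or more scaled CPM in AA1, and in 35 of these (25.0%) AA1 was the highest library. The share over all 24749 nonmember gene models at that level on numbered chromosomes, the 140 included, was 18.1%. A ratio of AA1 to the highest other library of 2 or more was found in 7 of the 140 (5%), against 2.88%. The numbers are small and neighbours share a source, so this is a description only.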

How the data were processed

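Per the file headers, the deposited values are the number of mapped reads per gene model, that is raw counts made by the authors without normalization. The submitters' processing notes name Bowtie. Not given in the sources used here are the genome build, the annotation, the counting program and the treatment of reads with several matches. Per the labels' protocols, the cDNA was not marked for strand, so antisense neighbours cannot be separated, and PCR copies count as reads. Library sizes were scaled with TMM factors over the 4 libraries (edgeR 4.0.16, R 4.3.3), which were 1.05 for AA1, 0.581 for B1, 1.08 for the dry seed and 1.51 for the seedling. Ratios have exact binomial 95% intervals (scipy 1.17.1), for counting error only. Where a library had 0 counts, the ratio is a lower bound against 3 counts in that library.

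The members and lists were chosen with earlier results of these data known. Named were the 10 members with the highest AA1 level, the 10 with the largest ratio at 5 or more scaled CPM, the first 3 for each second-highest library, the 5 groups of neighbours with most reads (within 5 places), and 3 gene models on each side of the threshold. Glyma07g11700 and Glyma07g11710 were named after their values were seen. Keyword lists of products were not run, since 0 of 66210 identifiers matched the name table of 59048 genes (assembly Glycine_max_v4.0). The rule was also run on simulated counts that held counting error only, which cannot show how libraries of the same stage would vary. Alternatives were 4 other scalings (among them DESeq2 1.42.0 size factors), other folds, floors and entry levels, a pseudocount, the interval rule, thinning, and no dry-seed requirement. With 1 library per stage no model was fitted.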

Additional observations from a re-analysis of the deposited data

How the results depend on the processing

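The group numbered 168 with total counts, 138 with DESeq2 size factors, 170 with upper-quartile factors and 155 without the 100 most abundant gene models, against 160, and 111 members were common to all 5. At least 3-fold gave 325 and at least 8-fold gave 28. An entry at 5 scaled CPM left 96, a floor of 10 counts 106 (171 with none beyond 1 count), a pseudocount of 1 scaled CPM 62 and the interval rule 71. Without the dry-seed requirement 1170 gene models passed, all 160 among them. Thinning to 16120894 counts gave 168, of which 147 were members. Entry levels of 0.5 scaled CPM or of more than 3 counts in AA1 gave 160 again, since the B1 floor lets nothing under 1.28 scaled CPM pass. Over the 160 members of the main rule, not chosen again, the median ratio stayed between 5.07 and 5.32 across the scalings. It was not computed for groups chosen with other folds, floors or entry levels, the pseudocount, the interval rule, thinning or no dry-seed requirement.

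The share of AA1 counts held by the group was 1.48% for members chosen with total counts, 0.900% with DESeq2, 0.974% with the upper quartile and 1.01% without the 100 most abundant gene models, against 1.03%. The counts that follow are over the 160 members of the main rule, not over members chosen again. With total counts the second-highest library was B1 in 8 members and the seedling in 75, and with the upper quartile the seedling in 27. At 4-fold, total counts gave B1 over dry seed in 1, B1 over seedling in 11, dry seed over B1 in 46, seedling over B1 in 41 and seedling over dry seed in 13. The pseudocount gave 0, 14, 13, 6 and 0 in the same order, and 18 for dry seed over seedling. Upper-quartile factors gave seedling over B1 in 12 and seedling over dry seed in 2, where DESeq2 also gave 2. Without the 100 most abundant gene models, B1 over dry seed was found in 4 and seedling over dry seed in 9. The cause of these differences was not tested.

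Of the 34 named members, the ratio fell under 4-fold in 6 with total counts, 4 with DESeq2, 2 with the upper quartile and 3 without the 100 most abundant. The lowest was 2.80, for Glyma05g27740 with total counts. No ratio fell below 1. No paired analysis was possible because each stage had 1 library. Ratios from few B1 counts are limited most by depth.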
